A study of Mus musculus with 69 samples.

Results

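The circadian clock genes examined here were Per1, Per2, Per3, Cry1, Cry2, Arntl, Clock, Nr1d1, Nr1d2 and Dbp, taken by gene symbol. They were chosen with earlier results of these data known. All 10 were found among the 24411 genes counted, and all 10 were among the 21175 genes tested. The measurements came from 69 mouse kidney libraries. In the pulldown libraries, a Cre driver switched on Uprt, a Toxoplasma gondii enzyme inserted at the Rosa26 locus. Uprt lets a cell build 4-thiouracil (4-TU) into new RNA. The RNA read out was therefore enriched for RNA made by the labelled cells after 4-TU was injected. It also held RNA of other cells, as the proximal tubule markers given below show. The pulldown mice of the first driver were Hoxb7Cre;UPRTf/+, whose Cre marks the collecting duct. Those of the other were Atp6b1v1Cre;UPRTf/+ in the spelling of the labels (Atp6v1b1Cre), whose Cre marks intercalated cells, collecting duct cells that share principal and intercalated markers, and a few scattered interstitial cells. The mice received 430 mg/kg 4-TU 4 hours before dissection, controls included.

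The treatments were iAKI, in which both renal pedicles were clamped for 10 minutes and 4-TU labelling followed 24 hours later, and vAKI, in which water and food were restricted for 72 hours. There were 7 iAKI and 7 vAKI libraries of Hoxb7 mice, 6 iAKI and 7 vAKI libraries of Atp6b1v1 mice, 10 Hoxb7 and 11 Atp6b1v1 Control pulldowns, and 21 Control Total libraries of unselected kidney RNA from mice of either genotype. The injury comparisons used the mice aged 5.5 months, and some of the controls were aged 3 months. The labels do not say whether each library came from a separate mouse, so p-values measure the spread between libraries. The paper's supplement lists 21 mice for its comparisons of Control pulldowns with Total RNA. Control pulldowns and Control Total libraries are equally many in every combination of driver, sex and age. A pulldown and a Total library could thus stem from the same mouse, but no label links them, and pairing by mouse was not tested. The time of day at which kidneys were taken is not in the labels, and its part in any difference given here was not tested. The iAKI and vAKI groups of a driver were compared with the same Control libraries.

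The clock is a loop of transcription factors. ARNTL (also called BMAL1) and CLOCK pair and bind E-boxes, short DNA elements of the sequence CACGTG, to switch on the Per, Cry, Nr1d and Dbp genes. The PER and CRY proteins then block ARNTL and CLOCK, the nuclear receptors NR1D1 and NR1D2 (REV-ERB alpha and beta) repress Arntl, and DBP drives genes that carry a D-box. Arntl therefore tends to peak at a time of day when Dbp and Nr1d1 are low. In the collecting duct the clock is known for its effect on sodium handling, and Per1 responds quickly to hormones as well as to the clock.

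Promoters of 300 bases, from 250 before to 50 after the start of transcription, were read from RefSeq (GRCm38.p6) for 9 of the 10 genes. They were searched on both strands for the E-box CACGTG, the D-box TTATGTAA and TAGGTCA, the core of the element bound by NR1D1. The 9 genes had 13 such promoters. The E-box was in 2 of 13, from Per1 and Cry1, and in 7.15% of 32851 RefSeq promoters. The D-box was in Per3 alone and in 0.938% of all promoters, and the NR1D1 core was in Arntl alone and in 2.61% of all promoters. These 4 promoters are shown because each carries the element through which one arm of the loop is known to act, and capitals mark the match. The windows are Per1 at chr11:69098699-69098998 on the plus strand, Cry1 at chr10:85185005-85185304 on the minus strand, Per3 at chr4:151044616-151044915 on the minus strand and Arntl at chr7:113207261-113207560 on the plus strand.
Per1: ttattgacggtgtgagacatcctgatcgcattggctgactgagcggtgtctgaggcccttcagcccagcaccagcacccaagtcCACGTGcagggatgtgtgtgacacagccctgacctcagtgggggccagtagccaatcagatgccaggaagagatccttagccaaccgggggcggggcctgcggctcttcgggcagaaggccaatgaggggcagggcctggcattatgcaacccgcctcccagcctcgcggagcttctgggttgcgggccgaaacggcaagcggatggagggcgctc
Cry1: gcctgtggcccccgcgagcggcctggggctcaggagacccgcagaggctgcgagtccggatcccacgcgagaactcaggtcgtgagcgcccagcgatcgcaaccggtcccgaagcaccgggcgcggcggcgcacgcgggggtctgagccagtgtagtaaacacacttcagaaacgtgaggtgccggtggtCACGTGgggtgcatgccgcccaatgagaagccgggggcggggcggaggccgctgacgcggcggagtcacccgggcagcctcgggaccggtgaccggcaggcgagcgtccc
Per3: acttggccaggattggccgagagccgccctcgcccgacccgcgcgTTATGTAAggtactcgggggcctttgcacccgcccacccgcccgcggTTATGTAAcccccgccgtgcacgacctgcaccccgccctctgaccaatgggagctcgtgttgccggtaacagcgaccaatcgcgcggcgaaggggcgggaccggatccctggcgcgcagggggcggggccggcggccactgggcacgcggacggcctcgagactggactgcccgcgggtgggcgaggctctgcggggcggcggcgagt
Arntl: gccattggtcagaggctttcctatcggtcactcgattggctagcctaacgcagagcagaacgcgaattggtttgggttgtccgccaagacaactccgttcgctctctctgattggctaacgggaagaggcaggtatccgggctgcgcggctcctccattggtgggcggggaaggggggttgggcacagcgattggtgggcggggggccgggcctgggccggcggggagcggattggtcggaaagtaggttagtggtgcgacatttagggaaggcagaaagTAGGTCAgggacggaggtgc

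The libraries held between 12618062 and 30305464 counts (median 20868430). The lowest count of a clock gene was 47, for Dbp in a vAKI Hoxb7 library, and the highest was 34608, for Per1 in another. Levels are given as CPM (counts scaled to the size of the library) after scaling the libraries to each other by TMM. In Control males the 5 principal cell markers summed to between 2608 and 3322 CPM in Hoxb7 pulldowns and between 607.1 and 861.4 CPM in total RNA, and the 5 proximal tubule markers summed to between 2832 and 4626 CPM in Hoxb7 pulldowns, between 3092 and 4658 CPM in Atp6b1v1 pulldowns and between 16130 and 19210 CPM in total RNA. The 5 intercalated cell markers summed to between 669.6 and 895 CPM in Atp6b1v1 pulldowns and between 259.4 and 316.4 CPM in total RNA. In Hoxb7 pulldowns they summed to between 534.7 and 865.9 CPM, overlapping the Atp6b1v1 range. The principal cell sum in Atp6b1v1 pulldowns, 698.1 to 732 CPM, lay within the range of total RNA. The library numbers in the labels fall into 3 runs with gaps between them, here called series A (36 libraries), series B (21 libraries) and series C (12 libraries). Every Hoxb7 iAKI and vAKI library was in series A. In bulk RNA, a change in the number of labelled cells and a change of RNA per cell cannot be told apart.

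The order of the clock genes by length-corrected level was led by Nr1d2 and closed by Arntl in each kind of control library. In Control Total RNA, the median level per kilobase of exon was 42.1 CPM for Nr1d2, 30.3 CPM for Per1, 23.4 CPM for Nr1d1, 17.5 CPM for Per2, 14.1 CPM for Dbp, 13.2 CPM for Cry2, 10.5 CPM for Cry1, 6.97 CPM for Clock, 5.57 CPM for Per3 and 1.68 CPM for Arntl. Each gene overlapped in range with its neighbours in that order, down to Per3, whose lowest library read 3.55 CPM per kilobase, and Arntl, whose highest read 4.48. Dbp varied most between these libraries, with levels per kilobase from 3.46 to 33.6 CPM, and Clock varied little, from 5.86 to 9.03 CPM. In the Control pulldowns Dbp took the ninth place, with a median of 6.33 CPM per kilobase over 10 Hoxb7 libraries and 9.36 CPM over 11 Atp6b1v1 libraries.

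Pulldown RNA of Control mice held more of most clock transcripts than total kidney RNA did. The pulldowns differ from total RNA in how new the RNA is, in cell type and in capture, and these cannot be told apart here. The test treated pulldown and Total libraries as independent, although some could share a mouse. Relative to Control Total, with sex as a covariate, 8 of 10 clock genes were higher and 1 was lower in Hoxb7 pulldowns (edgeR quasi-likelihood test, adjusted p under 0.05), and 66.6% of all genes tested passed that test, with 35.6% of all genes higher. In Atp6b1v1 pulldowns 8 of 10 were higher, against 63.8% of all genes in either direction and 34.4% higher, so most genes of the table differed. Clock was higher with log2 fold changes of 1.21 (SE 0.08, adjusted p = 9.38e-19) in Hoxb7 and 1.13 (SE 0.07, adjusted p = 3.30e-18) in Atp6b1v1, and Per3 with 1.21 (SE 0.11, adjusted p = 3.59e-14) and 1.25 (SE 0.10, adjusted p = 5.84e-15). Nr1d2 was higher by 0.97 and 1.19. Nr1d1, the other REV-ERB gene, did not pass in either driver, with log2 differences of 0.24 (SE 0.32, adjusted p = 0.522) in Hoxb7 and 0.23 (SE 0.31, adjusted p = 0.537) in Atp6b1v1. Dbp alone was lower in Hoxb7 pulldowns, by a log2 fold change of -0.87 (SE 0.32, adjusted p = 0.0171). The Dbp call was lost in 3 of 9 alternatives, among them males only, with -1.14 (adjusted p = 0.0962), and controls of 5.5 months only, with -0.68 (adjusted p = 0.107). In males only, 5 of 10 genes were called in Hoxb7 pulldowns, and the share of all genes called in that fit is not given here. Where a log2 change of 1 or more in either direction was required as well, 2 of 10 were called in Hoxb7, against 32.5% of all genes, and 3 of 10 in Atp6b1v1, against 27.7%. None of the 10 was called between the Control pulldowns of the drivers by the same test or by DESeq2, while edgeR called 9.93% of all genes and 20.5% of all genes had an unadjusted p under 0.05. The largest of those differences was -0.37 (SE 0.25, adjusted p = 0.449), for Arntl.

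**Figure D1:**
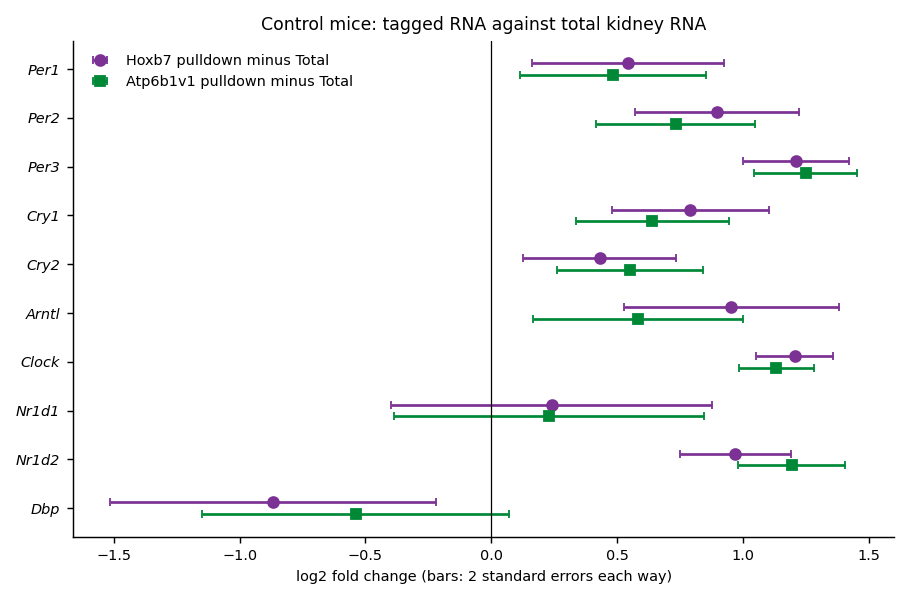
Log2 fold change of each clock gene in Control pulldowns against Control Total RNA (x axis; bars span 2 standard errors each way), with circles for Hoxb7 (10 libraries) and squares for Atp6b1v1 (11 libraries) against 21 Total libraries. Clock, Per3 and Nr1d2 lie between 0.97 and 1.25, Nr1d1 is near 0.24 and 0.23, and Dbp is at -0.87 and -0.54.

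Arntl and Dbp varied in opposite directions among untreated kidneys. Over the 21 Control Total libraries Arntl ranged from 4.87 to 33.7 CPM and Dbp from 10.3 to 100.5 CPM, and libraries high in one were low in the other. Arntl fell against Dbp with Pearson r = -0.91 and Spearman rho = -0.90 (permutation p = 2e-05 for both, the smallest that 100000 permutations can give; adjusted p = 9e-05 and 0.00018 over the 9 genes compared). Without the 2 libraries farthest from the median of Arntl, r was -0.90. The series differed in level, so the relation was computed within each: r was -0.87 in the 7 libraries of series A (exact permutation p = 0.0107, adjusted p = 0.0482), -0.94 in the 8 of series B (exact permutation p = 0.000694, adjusted p = 0.00625) and -0.72 in the 6 of series C (exact permutation p = 0.15, adjusted p = 0.3).

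Of the other targets of the loop, Nr1d2 gave r = -0.79 and rho = -0.73 (permutation adjusted p = 9e-05 and 0.00108) with Arntl over the 21 libraries, but the sign differed by series: r was -0.91 in series A, -0.77 in series B and 0.76 in series C, where the exact permutation p was 0.133. Nr1d1 gave r = -0.60 (permutation adjusted p = 0.00927) and rho = -0.36 (permutation adjusted p = 0.147), with r = -0.85 in series A, 0.54 in series B and 0.08 in series C. Cry1, which is known to peak later than the Per genes, moved with Arntl (r = 0.64, rho = 0.60, permutation adjusted p = 0.00552 and 0.0131). Per3 gave r = -0.55 (permutation adjusted p = 0.0193). Taken as deviations from the series means, Dbp was at r = -0.87 (permutation adjusted p = 0.00018), Per3 at -0.78 (permutation adjusted p = 0.00036) and Nr1d2 at -0.62 (permutation adjusted p = 0.00828). On the same scale Cry1 no longer passed (r = 0.35, permutation adjusted p = 0.202), nor did Nr1d1 (r = -0.21, permutation adjusted p = 0.548) or Clock (r = 0.05, permutation adjusted p = 0.907). Per1, Per2 and Cry2 gave r of -0.27, 0.29 and 0.05, with permutation adjusted p from 0.247 to 0.828. In the Control pulldowns, Dbp against Arntl gave r = -0.43 over 10 Hoxb7 libraries (permutation adjusted p = 0.675) and r = -0.44 over 11 Atp6b1v1 libraries (permutation adjusted p = 0.269).

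Over the same 21 libraries and 14704 genes, the gene least like Dbp was Arntl, in last place. Among the genes most like Dbp outside the clock set were Mrps9 (r = 0.91), Trnau1ap (0.91), Wbscr16 (0.87) and Nenf (0.87), above Nr1d1 (0.74) and Nr1d2 (0.73). Those most like Arntl were Acta2 (0.87), Ccdc80 (0.86), Tagln (0.85), Ypel2 (0.84) and Leo1 (0.83). These correlations are descriptions that share the libraries, their scaling and the series.

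**Figure D2:**
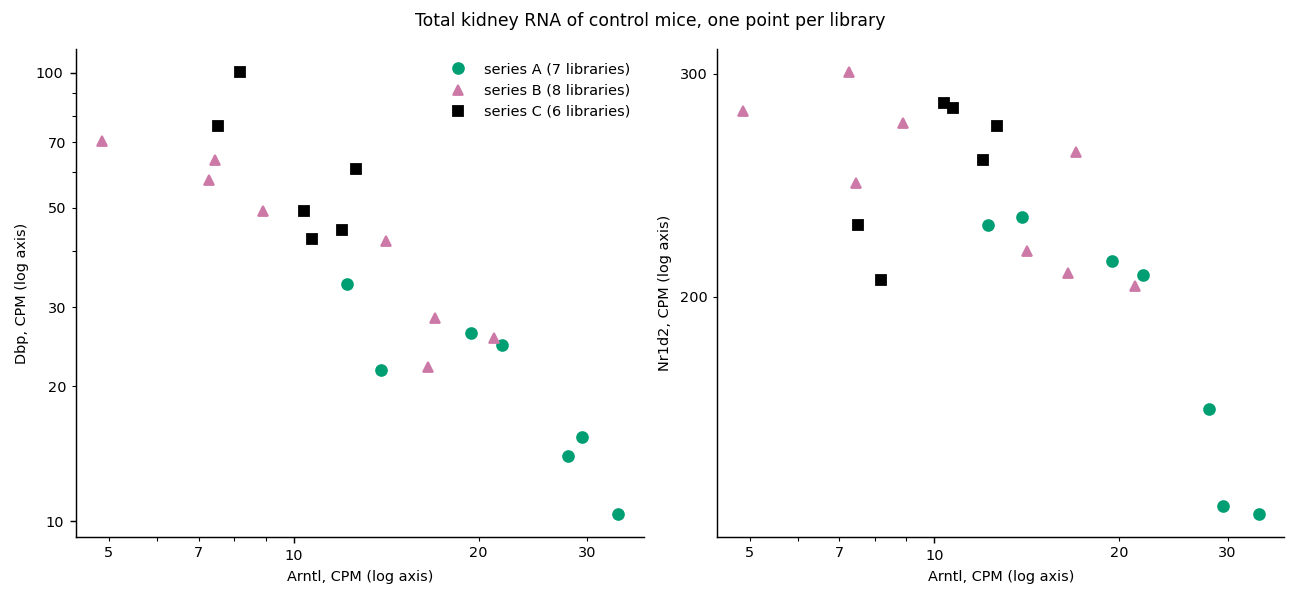
Arntl (x axis, CPM, log scale) against Dbp (left) and Nr1d2 (right, CPM, log scale) in the 21 Control Total libraries, one point per library, with symbols for library number series A (7), B (8) and C (6). Libraries high in Arntl are low in Dbp (r = -0.91), and series A holds the highest Arntl levels.

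In males, vAKI raised Per1, Per2 and Cry2 in the pulldown RNA of both drivers. In Hoxb7 mice 5 of 10 clock genes were higher and none was lower than in Control, while 35.5% of all genes tested passed and 17.9% were higher. In Atp6b1v1 mice 3 of 10 were higher and none lower, against 14.6% of all genes and 8.11% higher. For these 3 genes, direction and call held without each library in turn and in every alternative but the fold threshold. There Per2 in Atp6b1v1 males, at 0.89, fell short of a log2 change of 1. Groups that did not overlap were found for 5 of 10 genes in Hoxb7 males, against 39.5% of all genes, and for 3 of 10 in Atp6b1v1 males, against 14.5%.

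Per1 encodes a repressor of the loop that also responds to glucocorticoid and cyclic AMP signals. In Hoxb7 males its Control levels were 106.3, 117.7, 236.9 and 215 CPM and its vAKI levels were 1047, 1058 and 1253 CPM. Every vAKI library was above every Control library, and the log2 fold change was 2.73 (SE 0.31, adjusted p = 1.22e-06), a 6.64-fold difference. In Atp6b1v1 males Per1 was at 131.5, 220.2, 184.2 and 319.5 CPM in Control and at 406.6, 548.1, 954 and 874.3 CPM in vAKI, a log2 fold change of 1.71 (SE 0.29, adjusted p = 0.000645). The higher pair of vAKI libraries was in series B. Within series A the Atp6b1v1 value was 1.44 (adjusted p = 0.000563) and within series B 1.86 (adjusted p = 4.88e-05).

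Cry2, a cryptochrome that represses together with the PER proteins, rose as well. In Hoxb7 males it was at 74.8, 66.8, 94.7 and 97.4 CPM in Control and at 424.3, 385.8 and 452 CPM in vAKI, with no overlap and a log2 fold change of 2.34 (SE 0.24, adjusted p = 3.44e-07). In Atp6b1v1 males it was at 88.3, 124.1, 96.5 and 170.5 CPM in Control and at 185.5, 305.8, 456.8 and 406.7 CPM in vAKI (log2 fold change 1.51, SE 0.22, adjusted p = 0.000192). Every vAKI library lay above every Control library of its driver. Per2, the second period gene, was at 194.6, 180.5, 156.8 and 174.5 CPM in Control Hoxb7 males and at 471.6, 497.4 and 416.4 CPM in vAKI (log2 fold change 1.39, SE 0.14, adjusted p = 3.34e-07). In Atp6b1v1 males Per2 was 0.89 higher in log2 (SE 0.13, adjusted p = 0.000202), with vAKI libraries from 254.7 to 359.8 CPM and Control libraries from 132.4 to 205.9 CPM.

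The REV-ERB genes rose in Hoxb7 males, and the size of their rise turned on which controls were used. Nr1d1 was at 190.9, 141.8 and 270.2 CPM in vAKI and at 15.8, 14.5, 96.1 and 73.9 CPM in Control, where the low pair was in series A and the high pair in series B. The log2 fold change was 2.01 (SE 0.62, adjusted p = 0.0146) over all libraries and 3.74 (SE 0.29, adjusted p = 4.66e-08) within series A, which holds all of the vAKI Hoxb7 libraries. Without vAKI replicate 7 the call was lost (lowest log2 fold change without any one library 1.70, highest adjusted p = 0.0636). Nr1d2 was at 769.5, 563 and 654.8 CPM in vAKI and at 283.7, 246.3, 506.3 and 471.9 CPM in Control (log2 fold change 0.82, SE 0.21, adjusted p = 0.00369; 1.33 with adjusted p = 7.99e-07 within series A). In Atp6b1v1 males neither passed, with Nr1d1 at 1.2 (SE 0.58, adjusted p = 0.178) and Nr1d2 at 0.30 (SE 0.19, adjusted p = 0.322). Split by series, Nr1d1 was at 0.47 (adjusted p = 0.331) in series A and 1.41 (adjusted p = 6.92e-06) in series B, and Nr1d2 was at -0.04 (adjusted p = 0.966) and 0.54 (adjusted p = 0.00252).

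Dbp, a direct output of ARNTL and CLOCK, gave the clearest case of this split. Its Control Hoxb7 males read 3.62 and 4.12 CPM in series A and 43.3 and 38.7 CPM in series B, and its vAKI Hoxb7 males read 34.1, 23.05 and 39.3 CPM. Against all controls Dbp did not pass (log2 fold change 0.52, SE 0.62, adjusted p = 0.559), and within series A it was 3.06 higher (SE 0.32, adjusted p = 8.94e-07). With series as a covariate it was 2.00 higher (adjusted p = 0.000232). In Atp6b1v1 males, Dbp in vAKI read 19.1 and 8.85 CPM in series A and 36.3 and 33.6 CPM in series B, close to the Control values of 15.6 and 12.4 CPM and of 39 and 33.2 CPM in the same series, and the log2 difference was -0.03 (SE 0.58, adjusted p = 1).

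The activators of the loop and the remaining repressors did not pass. Arntl in Hoxb7 males was at 37.6, 23.9, 19.9 and 15.5 CPM in Control and at 16.3, 23.4 and 24.2 CPM in vAKI (log2 difference -0.18, SE 0.25, adjusted p = 0.629), and the groups overlapped. Clock differed by -0.21 (SE 0.16, adjusted p = 0.334), Cry1 by 0.27 (SE 0.18, adjusted p = 0.266) and Per3 by 0.27 (SE 0.17, adjusted p = 0.258). Within series A, Arntl was at -0.52 (adjusted p = 0.033), Clock at -0.49 (adjusted p = 0.00277) and Per3 at 0.61 (adjusted p = 0.000991). There Arntl and Clock passed as lower and Per3 as higher, and the share of all genes called in that fit is not given here. In Atp6b1v1 males Arntl, Clock, Cry1 and Per3 gave 0.26, -0.11, 0.29 and -0.19, with adjusted p from 0.273 to 0.661.

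**Figure D3:**
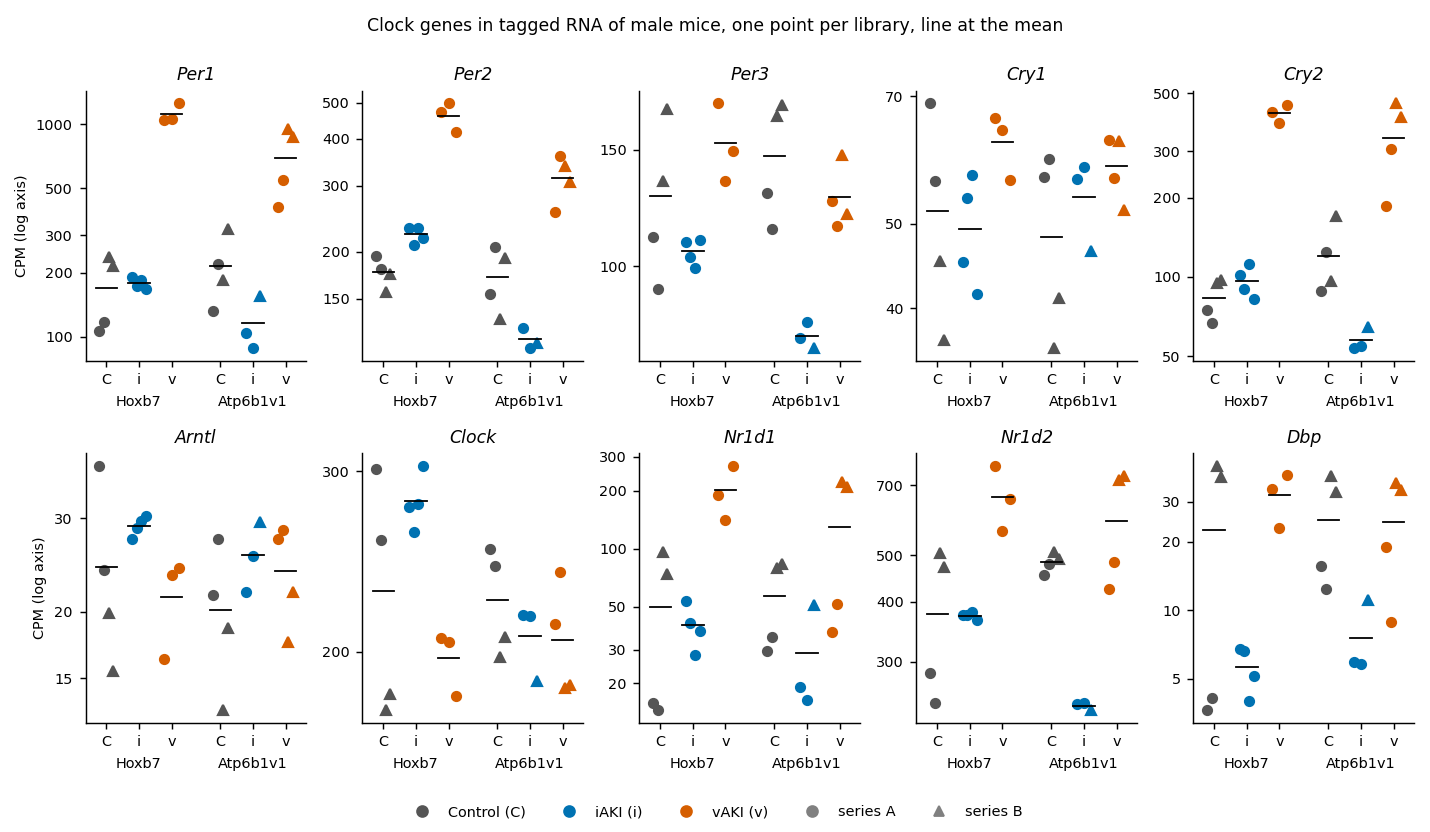
Level of each clock gene (y axis, CPM, log scale) in every male pulldown library at 5.5 months, for Control, iAKI and vAKI of each driver, with circles for library number series A, triangles for series B and a line at the group mean. Per1, Per2 and Cry2 in vAKI lie above every Control library of their driver, and the Control Hoxb7 libraries split by series for Dbp (3.62 and 4.12 CPM against 43.3 and 38.7 CPM), Nr1d1 and Nr1d2.

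iAKI gave a different picture, and it differed between drivers. In Hoxb7 males none of the 10 clock genes was called by edgeR's quasi-likelihood test, while 6.13% of all genes were; 1 of the 10, Dbp, was called by DESeq2. At an unadjusted p under 0.05, 20.6% of all genes passed. Dbp read 6.78, 6.63, 3.97 and 5.12 CPM in iAKI, and its log2 difference from all 4 controls was -1.99 (SE 0.61, adjusted p = 0.0553). Those libraries were all in series A, where the Control libraries read 3.62 and 4.12 CPM and the difference was 0.53 (SE 0.30, adjusted p = 0.287). Nr1d1 turned direction in the same way, from -0.31 (SE 0.58, adjusted p = 0.833) over all controls to 1.39 (SE 0.25, adjusted p = 0.00246) within series A, where its Control libraries read 15.8 and 14.5 CPM and its iAKI libraries 53.6, 41.0, 28.1 and 37.3 CPM. Per1 within series A was 0.67 higher (adjusted p = 0.02) and Nr1d2 was 0.49 higher (adjusted p = 0.0198). Per2 was at 232.2, 208.5, 231.9 and 218.2 CPM, above each of its controls, with a log2 difference of 0.35 (SE 0.13, adjusted p = 0.124).

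In Atp6b1v1 males 4 of 10 clock genes were lower in iAKI than in Control and none was higher, against 8.51% of all genes in either direction and 4.74% lower. Per3, a period gene that cycles strongly but is not needed for the loop, was at 77.8, 82.3 and 75.1 CPM against 129, 114, 168.7 and 175.4 CPM in Control (log2 fold change -0.92, SE 0.18, adjusted p = 0.0038). Nr1d2 was at 245.3, 246 and 237.3 CPM against 455, 479.3, 507.9 and 490.4 CPM (log2 fold change -1.0, SE 0.22, adjusted p = 0.00697), a tight group well below its controls in both series. Cry2 was at 53.6, 54.8 and 64.3 CPM (log2 fold change -1.07, SE 0.24, adjusted p = 0.0101) and Per2 at 125.7, 110.7 and 114.3 CPM (log2 fold change -0.56, SE 0.14, adjusted p = 0.0188). Each of these groups lay below all 4 Control libraries. With Dbp, 5 of 10 genes did not overlap their controls on the lower side, against 20.6% of all genes in either direction. The 5 proximal tubule markers summed to 1231 to 1545 CPM in these iAKI libraries and 3092 to 4658 CPM in Control, and 3 of 5 passed as lower (Slc34a1, Slc5a12 and Slc27a2), and their part in the clock gene differences was not tested. Without iAKI replicate 1 the Cry2 call was lost (highest adjusted p = 0.0678), and Per2 lost its call without any of iAKI replicates 1 and 4 or Control replicates 9 and 11 (highest adjusted p = 0.0855). Where a log2 change of 1 or more in either direction was required as well, 2 of 10 were called, Cry2 and Nr1d2, against 2.82% of all genes. Within series A, Per1 at -0.88 (adjusted p = 0.00823), Nr1d1 at -0.86 (adjusted p = 0.0456) and Dbp at -1.27 (adjusted p = 0.0135) passed as lower too. The share of all genes called in that fit is not given here. Arntl and Clock differed by 0.34 (SE 0.25, adjusted p = 0.433) and -0.13 (SE 0.16, adjusted p = 0.681).

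The difference between drivers was tested directly. For iAKI the Atp6b1v1 response lay below the Hoxb7 response for Cry2 by -1.29 (SE 0.33, adjusted p = 0.0188), for Nr1d2 by -1.0 (SE 0.29, adjusted p = 0.0356) and for Per2 by -0.91 (SE 0.20, adjusted p = 0.00856) in log2, 3 of 10 genes against 7.79% of all genes in either direction and 4.11% lower. The Per2 call held without each library in turn, the Cry2 call was lost without iAKI Atp6b1v1 replicate 1 or 4 (highest adjusted p = 0.0683), and the Nr1d2 call was lost in 12 of 22 such fits (highest adjusted p = 0.096). For vAKI none of the 10 was called, against 4.2% of all genes, where 18.8% of all genes had an unadjusted p under 0.05 and DESeq2 also called none. The estimates for Per1 and Cry2 in vAKI were -1.02 (SE 0.42, adjusted p = 0.181) and -0.83 (SE 0.32, adjusted p = 0.155), so a smaller rise in Atp6b1v1 was not called, with intervals of 2 standard errors from -1.85 to -0.18 and from -1.47 to -0.18.

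vAKI and iAKI were also set against each other within each driver in males. In Hoxb7 males this comparison set libraries of series A against each other. There 7 of 10 clock genes were higher and 1, Clock, was lower in vAKI, against 33.3% of all genes, 16.4% higher and 16.9% lower. The log2 differences were 2.63 for Per1, 2.51 for Dbp, 2.32 for Nr1d1, 2.11 for Cry2, 1.04 for Per2, 0.82 for Nr1d2, 0.53 for Per3 and -0.52 for Clock, with adjusted p from 1.16e-06 to 0.0206. Clock lost its call without vAKI replicate 7 (highest adjusted p = 0.0708) and Per3 without iAKI replicate 6 or vAKI replicate 4 (highest adjusted p = 0.0949). Where a log2 change of 1 or more in either direction was required as well, 5 of 10 were called, against 14.7% of all genes. In Atp6b1v1 males 6 of 10 were higher and none lower, against 29.3% of all genes and 15% higher, with 2.61 for Per1, 2.58 for Cry2, 2.18 for Nr1d1, 1.45 for Per2, 1.31 for Nr1d2 and 0.72 for Per3. Nr1d1 lost its call without iAKI replicate 1 or 4 or vAKI replicate 6 (highest adjusted p = 0.0827). Dbp gave 1.70 (SE 0.66, adjusted p = 0.0579) and Arntl -0.08 (SE 0.25, adjusted p = 0.888).

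**Figure D4:**
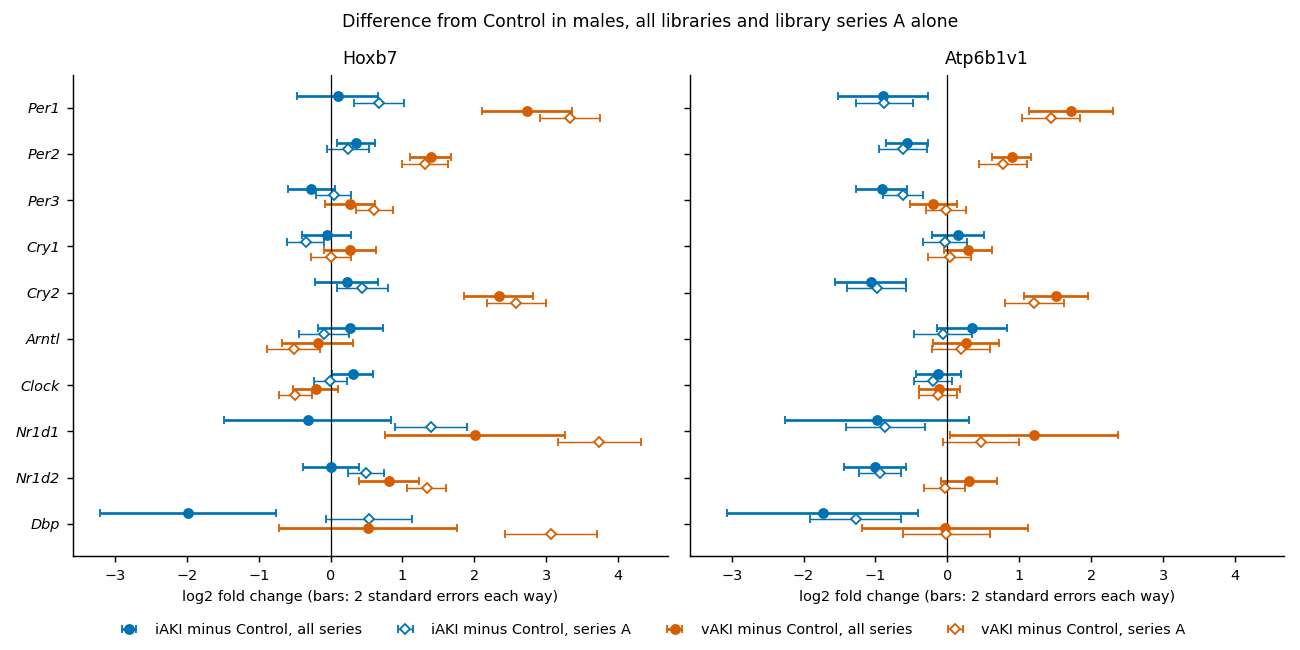
Log2 fold change against Control (x axis; bars span 2 standard errors each way) for each clock gene in males, for Hoxb7 (left) and Atp6b1v1 (right), with filled circles for all libraries and open diamonds for library number series A alone. In Hoxb7 vAKI, Dbp moves from 0.52 to 3.06 and Nr1d1 from 2.01 to 3.74 when the controls of series A alone are used, and Per1, Per2 and Cry2 are above 0 either way.

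Cell markers moved with the injury groups. In Hoxb7 males the sum of the 5 principal cell markers was 2608 to 3322 CPM in Control, 936 to 1176 CPM in iAKI and 1050 to 1158 CPM in vAKI, and all 5 passed as lower in both. The 5 fat markers summed to 40.8 to 113.2 CPM in Control, 7.31 to 22.5 CPM in iAKI and 13.7 to 27.6 CPM in vAKI, with Elovl3 at 0 in at least 1 library of each injured group. In Atp6b1v1 males the principal cell sum was 698.1 to 732 CPM in Control, 634.3 to 820.2 CPM in iAKI and 605.6 to 826.6 CPM in vAKI, and the fat sum was 31.9 to 93.6 CPM in Control, 67.1 to 132.9 CPM in iAKI and 9.43 to 24.9 CPM in vAKI. The 5 intercalated cell markers fell in vAKI for 3 of 5 in Hoxb7 (Foxi1, Slc4a1 and Atp6v0d2) and 2 of 5 in Atp6b1v1 (Foxi1 and Atp6v0d2). Of 4 fibroblast markers 3 rose in Hoxb7 iAKI (Pdgfrb, Col1a1 and Col3a1), and of 5 leukocyte markers 3 rose in Hoxb7 vAKI (Cd68, C1qa and C1qb) and Csf1r fell. None of 3 podocyte markers was called in any of the 4 male comparisons by edgeR. The part of these markers in the clock gene differences was not tested.

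Genes that work around the loop were counted from 4 lists. The lists were chosen with earlier results of these data known. The paper itself names Irs2, Pdk4 and Nfil3 among genes raised by volume depletion, so the counts below are partly fixed by that choice. The shares of all genes called, beside which each count stands, were 35.5% in Hoxb7 vAKI males (17.9% higher) and 14.6% in Atp6b1v1 vAKI males (8.11% higher). Of 11 other clock loop factors, 6 were higher and 2 lower in Hoxb7 vAKI males (median log2 difference 0.83, 0 over all genes), and 3 were higher and 3 lower in Atp6b1v1 vAKI males (median -0.06). Nfil3, a repressor that competes with DBP for the D-box, rose from between 14.7 and 27 CPM in Control Hoxb7 males to between 261.8 and 347.2 CPM, a log2 fold change of 3.89 (SE 0.37, adjusted p = 1.17e-07), and rose by 2.91 (SE 0.34, adjusted p = 1.80e-05) in Atp6b1v1. Bhlhe40, which represses at E-boxes, rose by 3.18 and 1.71, and Ciart, another repressor of ARNTL and CLOCK, by 3.27 and 1.78. Rorb, a retinoid-related orphan receptor gene, fell by 1.65 and 0.96 on the log2 scale. Outside the naming rule, and chosen after their values were seen, Npas2 was also lower in Hoxb7 (-1.06), Rora (0.92) and Bhlhe41 (2.52) were higher there, and Hlf was lower in Atp6b1v1 (-0.89). Tef, a D-box activator like DBP, passed in opposite directions: it was 0.83 (adjusted p = 0.00321) in Hoxb7 and -0.95 (adjusted p = 0.00259) in Atp6b1v1, and the difference of -1.78 (SE 0.29) between drivers passed with adjusted p = 0.00132.

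Of 15 genes listed as clock protein modifiers, only some of which phosphorylate or degrade PER and CRY, 3 were higher and 4 lower in Hoxb7 vAKI males. In Atp6b1v1 vAKI males 1 was higher and 1 lower. Of all genes, 35.5% and 14.6% were called in these comparisons, and the modifiers were near those shares. Csnk1e, the casein kinase 1 epsilon gene, rose by 1.03 (adjusted p = 6.42e-05) and 0.61 (adjusted p = 0.0129), and Cipc, an inhibitor of CLOCK, fell by 0.74 (adjusted p = 6.35e-05) and 0.47 (adjusted p = 0.00701) on the log2 scale. The other modifiers called in Hoxb7, named after their values were seen, were Usp2 (2.10), Fbxw11 (0.53), Csnk2a1 (-0.31), Fbxl21 (-0.74) and Nono (-0.64). Of 11 clock output genes, 7 were higher and 2 lower in Hoxb7 and 4 higher and 1 lower in Atp6b1v1. Sgk1, an aldosterone-induced kinase of sodium transport, rose by 1.93 and 2.06, Lpin1 by 1.26 and 1.26, Rgs16 by 2.60 and 2.17 and Coq10b by 1.29 and 0.83. Scnn1a, the alpha subunit of the epithelial sodium channel and a known Per1 target, was lower, with -0.52 (adjusted p = 0.0076) and -0.43 (adjusted p = 0.0345). Avpr2, the vasopressin receptor gene of principal cells and also among their markers, was the other output gene that fell in Hoxb7 (-2.97), named after its value was seen. Of 12 glucocorticoid and fasting response genes, 10 were higher and none lower in Hoxb7 and 7 higher and none lower in Atp6b1v1, with medians of 1.56 and 0.85. Irs2, the insulin receptor substrate induced by fasting, rose by 2.39 and 2.28, Txnip by 2.35 and 1.88, Cdkn1a by 2.90 and 1.43, Pdk4 by 1.55 and 2.24, Klf9 by 1.58 and 0.70 and Zbtb16 by 1.70 and 0.99.

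In Atp6b1v1 iAKI males, where 8.51% of all genes were called and 4.74% were lower, 4 of 11 other loop factors, 2 of 15 modifiers, 3 of 11 outputs and 6 of 12 glucocorticoid and fasting genes were lower, and none in the 4 lists was higher. Klf9 was at -1.58 (adjusted p = 0.000155), Irs2 at -1.56 (adjusted p = 0.00243) and Tef at -1.44 (adjusted p = 0.000728). The other loop factors that fell were Ciart, Rora and Hlf, the modifiers Usp2 and Fbxw11, and the outputs Lpin1, Por and Wee1, of which all but Ciart and Lpin1 were named after their values were seen. In Hoxb7 males 1 other loop factor (Rorb, -0.91) and 1 output gene (Avpr2, -1.33) were lower, 1 modifier (Timeless, 1.23) was higher, and none of the 12 glucocorticoid and fasting genes passed, against 6.13% of all genes called.

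The females gave a second set of mice, with a caution about 3 libraries. The libraries labelled vAKI Hoxb7 female replicates 1, 2 and 3 stood apart from the other vAKI Hoxb7 libraries. Over 2008 genes that were at least 1 higher in log2 in male Hoxb7 vAKI, the clock genes and lists left out, the median log2 difference from the Control Hoxb7 females was -0.52, 0.05 and -0.36 in those 3 libraries. It was 0.95 in vAKI female replicate 5 and between -0.54 and 0.34 in the Control females themselves, with -0.54 in the control of series A. In the iAKI Hoxb7 females, all of series A, it was between -1.0 and -0.67. The vAKI males gave 1.44 to 1.60, a range fixed in part because the genes were chosen in them. Female results are therefore given with and without vAKI Hoxb7 female replicates 1, 2 and 3. Without them the vAKI Hoxb7 female group is 1 library, which is assumed to vary like the other groups. A further limit is that 1 of the 4 Control Hoxb7 females was in series A, with all of the iAKI and vAKI Hoxb7 females. Nfil3, Irs2, Txnip and Sgk1 were higher in each of replicates 1, 2 and 3 than in that control. Nfil3 read 61.4, 112.2 and 56.3 CPM in those replicates and 24.4 CPM in that control. In the other Control Hoxb7 females Nfil3 read 92.3, 93.0 and 61.2 CPM.

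In Atp6b1v1 females vAKI raised Per1, Cry2 and Per2. Per1 was at 316.5, 141.6, 267.9 and 184.9 CPM in Control and at 1617, 1152 and 1562 CPM in vAKI (log2 fold change 2.67, SE 0.57, adjusted p = 0.00554). Cry2 was at 184.3, 86.4, 160.5 and 94.7 CPM in Control and at 462.9, 493.6 and 540.9 CPM in vAKI (log2 fold change 1.93, SE 0.46, adjusted p = 0.00887). Per2 was at 281.1, 160.4, 152.2 and 121.4 CPM in Control and at 438.8, 546.6 and 365.4 CPM in vAKI (log2 fold change 1.33, SE 0.35, adjusted p = 0.0132). These were the 3 of 10 called, all higher, against 18% of all genes in either direction and 9.2% higher. Nr1d1 was at 264.9, 199.3 and 548.3 CPM in vAKI and between 32.5 and 89.7 CPM in Control, with a log2 difference of 2.33 (SE 0.84, adjusted p = 0.0558). Arntl was at 9.58, 12.6 and 16 CPM in vAKI against 15.9 to 37.1 CPM in Control, with the groups overlapping (log2 difference -0.95, SE 0.41, adjusted p = 0.112). With the 3 doubtful Hoxb7 libraries left out of the fit, Nr1d1 was 2.34 higher, Nr1d2 was 0.66 higher and Arntl was at -0.94, each passing there. The share of all genes called in that fit is not given here.

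In Hoxb7 females none of the 10 was called in vAKI, by edgeR or by DESeq2, against 0.109% of all genes; 7.91% of all genes had an unadjusted p under 0.05. Per1 was at 186.2, 292.1 and 197.4 CPM in the 3 libraries that stood apart, 1679 CPM in replicate 5 and 210.5, 339.9, 558.5 and 450.8 CPM in Control. Dbp was at 2.52, 6.07 and 2.93 CPM in those libraries and 45.5 CPM in replicate 5, and Arntl was at 78.6, 59.6 and 58.3 CPM against 11.9 CPM. The 3 libraries were higher in Arntl than any Control Hoxb7 female, whose range was 24.5 to 36.9 CPM, and replicate 5 was lower than any. Without those 3 libraries the vAKI group was replicate 5 alone, with log2 differences of 2.08 for Per1 and 1.49 for Cry2. Replicate 5 was kept because it resembled the male vAKI libraries, so these values are largely fixed by that choice.

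In iAKI females none of the 10 was called by edgeR in either driver, against 3.14% of all genes in Hoxb7 and 2.66% in Atp6b1v1, while DESeq2 called 3 in Hoxb7 and 2 in Atp6b1v1, all lower. At an unadjusted p under 0.05, 23.7% and 20.1% of all genes passed. Per1 in Hoxb7 females was at 93, 83.9 and 83.5 CPM, below all 4 of its controls, with a log2 difference of -2.16 (SE 0.60, adjusted p = 0.052). In Atp6b1v1 females Cry2 was at 44.4, 32 and 76.8 CPM (log2 difference -1.39, SE 0.48, adjusted p = 0.11) and Nr1d2 at 273.7, 257.6 and 299.1 CPM (log2 difference -0.90, SE 0.26, adjusted p = 0.0606), each below all of its controls. Leaving the 3 vAKI Hoxb7 libraries out of the fit raised the number of clock genes called as lower in both drivers. The share of all genes called in that fit is not given here, so this rise has no background beside it.

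The difference between sexes was tested as the female response minus the male response. In Hoxb7 mice it was called for Cry2 (-2.09, adjusted p = 0.00866), Per2 (-1.26, adjusted p = 0.0197), Per1 (-2.14, adjusted p = 0.0237) and Nr1d2 (-1.05, adjusted p = 0.0256) in vAKI, against 16% of all genes and 7.48% lower, and none of the 10 was called by edgeR's quasi-likelihood test without the 3 libraries that stood apart. Those libraries were left out because their medians over the male vAKI genes stayed within the range of the Control females. The loss of these calls is therefore largely fixed by that choice. In iAKI it was called for Per1 (-2.27, SE 0.67, adjusted p = 0.0271) and Cry2 (-1.72, SE 0.53, adjusted p = 0.0348), against 10.5% of all genes and 6.51% lower, and both calls held without those 3 libraries. Of 43 fits that left out 1 library, the Per1 call was lost in 5, without iAKI Hoxb7 replicates 2 and 3 and Control Hoxb7 replicates 2, 3 and 9 (highest adjusted p = 0.0969), and the Cry2 call was lost in 9 (highest adjusted p = 0.137). Within series A, which holds 1 of 4 female and 2 of 4 male Hoxb7 controls, neither was called, with Per1 at -1.96 (SE 0.89, adjusted p = 0.394) and Cry2 at -1.02 (SE 0.72, adjusted p = 0.613), in a fit chosen after seeing the data. In Atp6b1v1 mice no gene of the whole table was called for either treatment by edgeR, while DESeq2 called 1 gene in iAKI and 45 in vAKI and none of the 10, with 3.19% and 8.29% of genes at an unadjusted p under 0.05 in iAKI and vAKI. The interval of the sex difference for Per1 in vAKI, 2 standard errors each way, ran from -0.34 to 2.27.

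**Figure D5:**
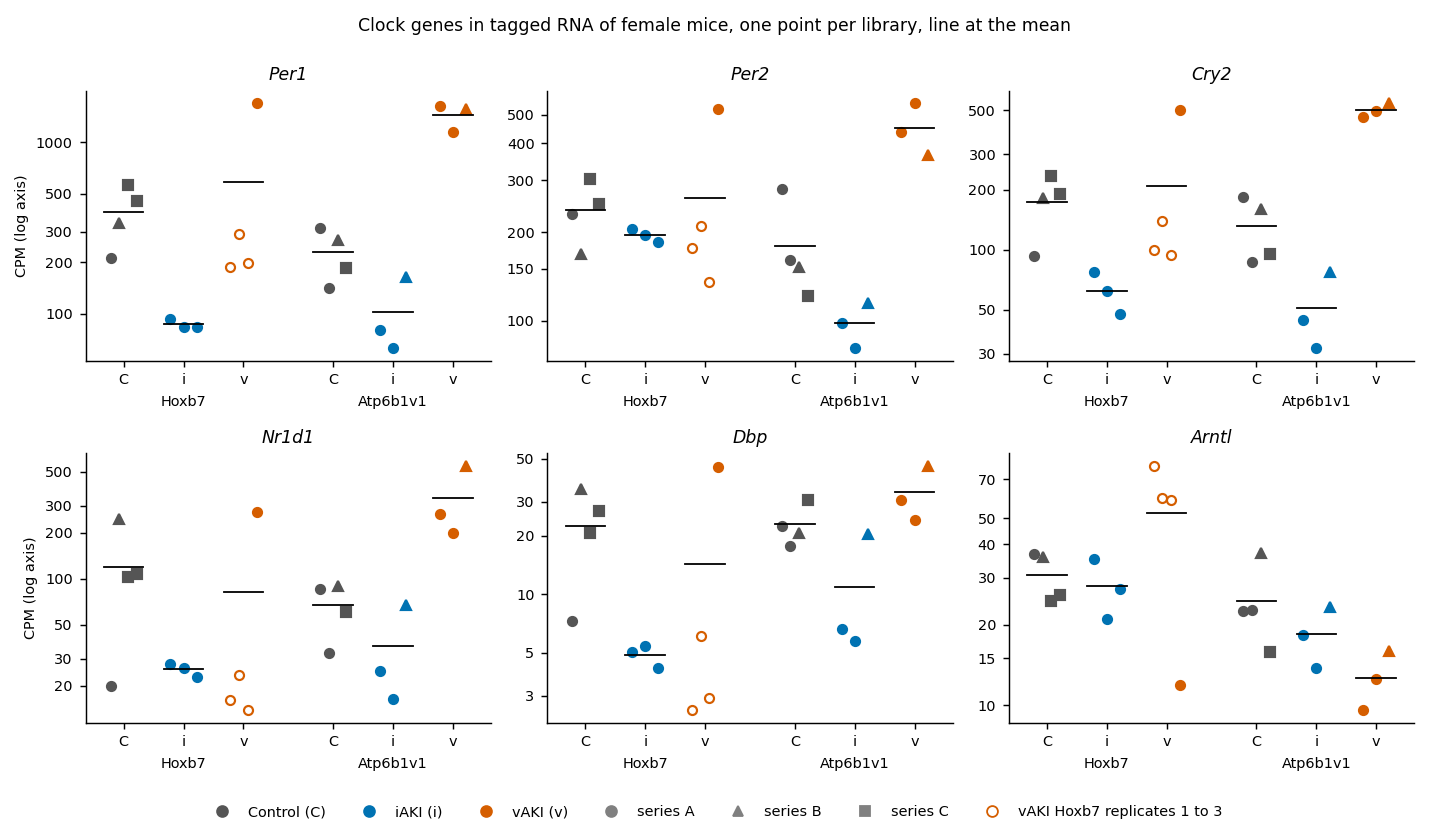
Level of 6 clock genes (y axis, CPM, log scale) in every female pulldown library at 5.5 months, with symbols for library number series A, B and C, a line at the group mean and open circles for the vAKI Hoxb7 replicates 1 to 3. Those libraries lie among or below the Control Hoxb7 females in Per1, Cry2 and Dbp and above them in Arntl, whereas vAKI Hoxb7 replicate 5 lies with the vAKI Atp6b1v1 females.

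The positions of the genes bear on the counts in a few cases. In GENCODE vM21 (GRCm38), Per1 lies at chr11:69095217-69109960 and Nr1d1 at chr11:98767932-98775333. Of the Nr1d1 exonic bases, 263 (8.5%) are shared with Thra on the opposite strand. Dbp, at chr7:45705088-45710203, shares 539 exonic bases (18%) with Sphk2 on the opposite strand, and Cry2, at chr2:92403646-92434043, shares 295 (4.7%) with D930015M05Rik. The library kit is named without a strand option, so reads from these stretches could belong to either gene. The other members shared at most 33 exonic bases with a gene on the other strand.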

How the data were processed

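RNA of 69 mouse kidney libraries was sequenced after a TruSeq RNA library preparation. The authors deposited raw counts per gene. The submitters' processing notes and the study's methods name CASAVA 1.8.2, Trimmomatic 0.36, STAR 2.5.3a with mm10 and HTSeq 0.6.1p2. The annotation used for counting is not given in the sources used here. The study states that HTSeq ran with default settings and does not name the strand option. How reads in bases shared with a gene on the other strand were counted was not tested. Reads are not independent molecules, and depth covers counting error only.

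The 10 clock genes, the gene lists and the markers were chosen with earlier results of these data known. Genes with at least 2 counts over all libraries (21175 of 24411) were tested with edgeR 4.0.16 (TMM, quasi-likelihood F test, Benjamini-Hochberg over all genes tested, R 4.3.3). A gene was called at an adjusted p under 0.05. The standard error is the log2 fold change divided by the square root of F. Males (22 libraries, 6 groups, totals of 14237156 to 29051810 counts) were fitted together, as were females (21 libraries), both sexes for the sex difference (43 libraries), and the controls with sex as a covariate. Correlations used log2 CPM with a prior count of 2 and 100000 permutations in SciPy 1.17.1, two-sided, or exact permutation under 10 libraries. All 10 clock genes were named, and, from each list, up to 6 genes that passed in vAKI of both drivers in males, by smallest adjusted p in Hoxb7. The 5 genes most like Dbp and Arntl were found by Pearson r, and 1 of them is not reported here.

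The alternatives were DESeq2 1.42.0, its size factors in edgeR, other count filters, other sets of samples, the library number series, the replicate number as a block, a fold threshold and leaving out each library. Leaving out 3 vAKI Hoxb7 libraries, taking series B alone and taking series A alone for the sex difference were chosen after seeing the data. On counts simulated for vAKI against Control in Hoxb7 males (21175 genes, 50 changed per fold), the test recovered 26% of genes changed 1.5-fold, 68% at 2-fold, 96% at 4-fold and 100% at 8-fold, with 7 false among 152 calls. The simulated counts held no difference between series, and the changed genes were drawn from those expected at 50 counts or more. These shares therefore do not cover the split of the Hoxb7 controls by series. No 2 libraries held identical counts or agreed within sampling noise, and all 33 female and 36 male libraries matched their labelled sex.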

Additional observations from a re-analysis of the deposited data

Results flagged for a closer look

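Within groups of 4 to 10 libraries of one sex, 8 of 90 combinations of gene and group had a lowest or highest library far from the others by Dixon's criterion, where chance gives about 1 in 20. In vAKI Hoxb7 females, replicate 5 was far above the other 3 libraries in 5 genes. It read 1679 CPM for Per1 (others 186.2 to 292.1), 499.4 CPM for Cry2 (94.3 to 139.7), 273.8 CPM for Nr1d1 (13.8 to 23.5), 191.5 CPM for Per3 (80.1 to 83.2) and 45.5 CPM for Dbp (2.52 to 6.07). The other 3 values were low and in Control females: Per3 at 78.2 CPM in Atp6b1v1 replicate 12 (others 117.4 to 124.3), Nr1d2 at 362.9 CPM in Hoxb7 replicate 1 (537.9 to 572) and Per3 at 34.1 CPM in Total replicate 13 (52.3 to 62.2).

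Of 60 tested differences between the responses of drivers or sexes, 9 were called. The Atp6b1v1 response to iAKI lay below the Hoxb7 response in males for Per2 (-0.91, adjusted p = 0.00856), Cry2 (-1.29, adjusted p = 0.0188) and Nr1d2 (-1.0, adjusted p = 0.0356). The female response lay below the male response in Hoxb7 mice for Per1 (-2.27) and Cry2 (-1.72) in iAKI and for Per1 (-2.14), Per2 (-1.26), Cry2 (-2.09) and Nr1d2 (-1.05) in vAKI. The 4 vAKI sex differences were lost without the 3 vAKI Hoxb7 libraries that stood apart, which is largely fixed by why those libraries were left out. The 2 iAKI sex differences were not called within series A, at -1.96 for Per1 (adjusted p = 0.394) and -1.02 for Cry2 (adjusted p = 0.613).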

How the results depend on the processing

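Per1, Per2 and Cry2 in male vAKI kept their direction and call under every alternative but the fold threshold. Per2 in Atp6b1v1 males, at 0.89, fell short of a log2 fold change of at least 1. Nr1d1 in iAKI Hoxb7 males turned from -0.31 to 1.11 with series as a covariate and to 1.39 within series A. The number of the 10 genes called moved as follows. For iAKI in Hoxb7 males, 0 became 1 with DESeq2, filterByExpr, 25 males or both sexes, 2 with series as a covariate and 3 within series A. For vAKI in Hoxb7 males, 5 became 3 with both sexes, 8 with series as a covariate and 9 within series A. For Atp6b1v1 males, 4 in iAKI became 7 within series A and 2 with a log2 fold change of at least 1, and 3 in vAKI became 5 with both sexes and 6 within series B, a fit with 2 residual degrees of freedom. With that fold threshold, vAKI against iAKI in Hoxb7 gave 5, and pulldown against total gave 2 in Hoxb7 and 3 in Atp6b1v1. Hoxb7 against total gave 5 in males only. In females, iAKI Hoxb7 gave 3 with DESeq2 and 1 with filterByExpr. With DESeq2, iAKI Atp6b1v1 gave 2 and vAKI Atp6b1v1 gave 5. Without the 3 vAKI Hoxb7 libraries, more genes were called in these comparisons and fewer for the vAKI sex difference in Hoxb7. In that fit the vAKI Hoxb7 female group was 1 library. Within series A, the Hoxb7 sex difference gave 0 in iAKI and 0 in vAKI. Apart from the fold threshold, the shares of all genes called in these alternative fits are not given here, so the counts stand without a background. The cause of these moves was not tested.

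Leaving out 1 library at a time, the count ranged from 4 to 6 for vAKI and 0 to 1 for iAKI in Hoxb7 males, 3 to 3 for vAKI and 2 to 5 for iAKI in Atp6b1v1 males, 7 to 8 and 5 to 7 for vAKI against iAKI, and 1 to 4 and 0 to 0 for the driver difference in iAKI and vAKI. In females it ranged from 0 to 5 and 0 to 1 for iAKI and vAKI in Hoxb7 and from 0 to 4 and 3 to 6 in Atp6b1v1. For the sex difference it ranged from 0 to 2 in iAKI and 1 to 9 in vAKI in Hoxb7, the 9 without vAKI Hoxb7 replicate 5, and was 0 in Atp6b1v1.

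Neither the labels nor the correlations met the requirement for pairing by replicate number. Deviations of same-numbered libraries correlated with a median of -0.0139 over 20 male pairs, -0.0693 over 14 female pairs and 0.039 over 26 control pairs. Among controls of one series, same-numbered pairs had a median of 0.387, with 9 of 10 pairs over 0.1, against 0.137 for 174 pairs with different numbers. With the replicate block, 2 genes were called for iAKI in Hoxb7 males and 0 for iAKI in Atp6b1v1 males, for the driver difference in iAKI and for vAKI in Atp6b1v1 females. For pulldown against total it gave 8 in Hoxb7 and 7 in Atp6b1v1, and Dbp in Hoxb7 lost its call (-0.51, adjusted p = 0.105).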
